A study of Mus musculus with 22 samples.

Results

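Irx1, Irx2, Pou3f4, Ttr and Hhex are genes used to tell the alpha and delta cells of the pancreatic islet from its beta cells, and their levels were followed through the stages of tumour growth in mice of the RIP1-TAG2 (RT2) model. They are 5 of the 19938 genes measured. They were chosen as listed genes with a probe set of a single gene symbol, on their measured levels across the 6 tissue labels set against those of the islet hormones, so these levels are given as a description with no test. Irx1, Irx2 and Pou3f4 were higher in metastasis-like primary tumours and liver metastases than in every islet and islet tumour sample. Ttr took the same direction, and Hhex was lowest in the metastasis-like primaries. Gcg, the glucagon gene that marks alpha cells, was far lower in all tumours and metastases than in islets.

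The islet holds several endocrine cell types, each named by the hormone it makes: beta cells insulin, alpha cells glucagon, delta cells somatostatin. Irx1 and Irx2 are Iroquois homeobox transcription factors found in alpha cells and not in beta cells. Pou3f4, also called Brain-4, is a POU homeodomain factor that binds the glucagon gene promoter. Ttr encodes transthyretin, which alpha cells make and which carries thyroxine in blood and, bound to the product of Rbp4, retinol. Hhex is a homeobox factor that delta cells need in order to form, and it is also made in liver and endothelium.

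All 22 samples, the normal islets included, carry the RT2 genotype in their labels. In this model the insulin promoter drives the SV40 T antigen, a viral oncoprotein, in beta cells, so that islets become hyperplastic, then angiogenic, and some form neuroendocrine tumours. The samples were 3 normal islets, 3 hyperplastic islets, 3 angiogenic islets, 5 islet tumours, 5 metastasis-like primary tumours and 3 liver metastases, with 1 array each. Islet samples share title codes across the 3 islet stages (NormalI-93, Normal2006 and Normal2007, and likewise for the hyperplastic and angiogenic islets), and tumours and metastases carry the prefixes I, II or III, with prefix I on all 3 metastases. The sources used here do not give the meaning of these codes, the strain, age and number of the animals, or the way a primary tumour was classed as metastasis-like. Any p-value therefore measures only the spread between these samples, which may be technical. Levels are the deposited log2 intensities of 1 probe set per gene, and a difference of 1 means a doubling, so levels of different genes are not compared.

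The labels were set against marker genes as means of log2 levels per array. The 10 beta-cell genes stood at 11.62 to 11.67 in normal islets, 10.6 to 11.06 in islet tumours, between 8.37 and 9.05 in metastasis-like primaries and 8.95 to 9.62 in liver metastases. The 17 hepatocyte genes stood at 10.04 to 10.57 in liver metastases and at 6.38 to 6.72 in all primary tumours. Of the angiogenic islets, I-93 stood at 6.72 on the hepatocyte genes and the other two at 7.87 and 8.52. The digestive-enzyme and other acinar genes ranged from 8.67 to 11.05 in normal islets. In bulk tissue, fewer cells of a type and less RNA per cell cannot be told apart.

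The reference promoters of Irx2 and Pou3f4, which were high in the same samples, and of Hhex, which was not, are printed to show the DNA around their start sites. They run from 250 bases before to 50 after the start, on the plus strand of GRCm38.p6 as RefSeq gives it, at chr13:72628570-72628869, chrX:110814129-110814428 and chr19:37434591-37434890. Irx1 is named only. Capitals mark the CCAAT box (CCAAT) and the GC box (GGGCGG), read on both strands.
Irx2: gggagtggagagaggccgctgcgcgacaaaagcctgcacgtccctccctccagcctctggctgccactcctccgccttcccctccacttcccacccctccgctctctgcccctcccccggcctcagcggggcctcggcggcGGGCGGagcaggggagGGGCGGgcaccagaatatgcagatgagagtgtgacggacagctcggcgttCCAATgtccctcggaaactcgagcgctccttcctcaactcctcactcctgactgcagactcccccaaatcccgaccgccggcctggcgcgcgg
Pou3f4: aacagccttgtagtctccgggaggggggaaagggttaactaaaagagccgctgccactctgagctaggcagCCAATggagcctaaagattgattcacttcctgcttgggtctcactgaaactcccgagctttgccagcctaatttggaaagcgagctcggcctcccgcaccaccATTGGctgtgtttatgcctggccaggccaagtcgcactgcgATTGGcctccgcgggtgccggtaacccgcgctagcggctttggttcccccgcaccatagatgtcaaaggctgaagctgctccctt
Hhex: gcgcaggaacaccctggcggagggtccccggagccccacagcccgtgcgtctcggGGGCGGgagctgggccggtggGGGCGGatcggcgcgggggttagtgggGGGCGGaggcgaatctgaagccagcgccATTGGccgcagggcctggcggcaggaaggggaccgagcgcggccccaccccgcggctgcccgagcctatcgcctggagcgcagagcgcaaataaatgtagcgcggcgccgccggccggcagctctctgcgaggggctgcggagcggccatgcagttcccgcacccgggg

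These 3 promoters differ in their basal elements. Irx2 has 1 CCAAT box and 2 GC boxes, Pou3f4 has 3 CCAAT boxes and no GC box, and Hhex has 1 CCAAT box and 3 GC boxes. Of 32851 mouse promoters of the same length, 37.4% held a CCAAT box and 35.7% a GC box. None of the 3 held the TATA box TATAAA (13.6% of promoters) or the octamer ATGCAAAT bound by POU factors (1.7%). The E-box CANNTG (72.3%) matched at 1 place in Irx2, outside the capitals, and nowhere in the others. Hhex had 37 CG dinucleotides and 75.7% GC, and 94.4% of promoters had fewer CGs, while Irx2 had 25 (81.6% had fewer) and Pou3f4 15 (65.4%). These matches describe the letters in this window and show no binding.

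**Figure D1:**
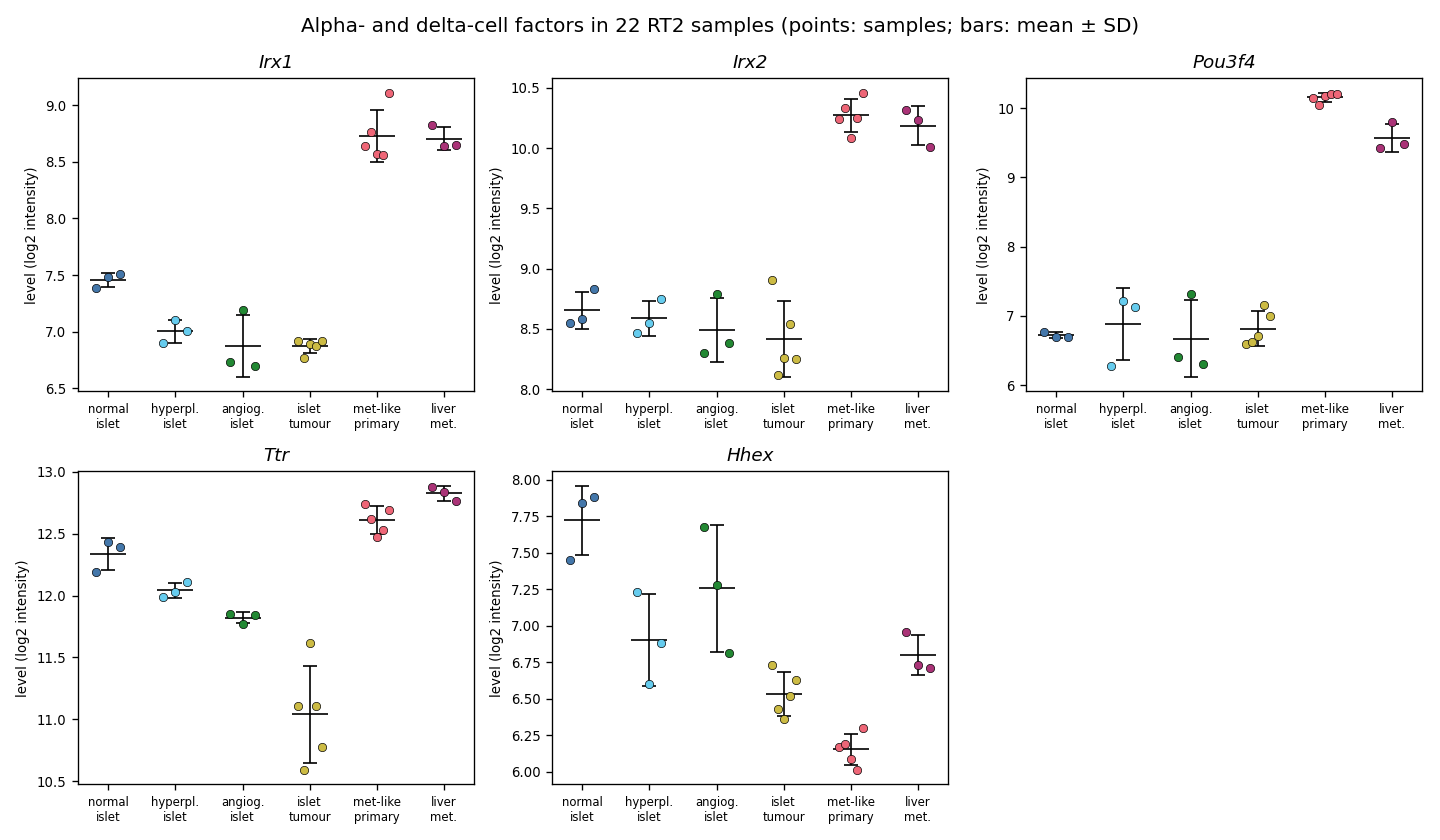
Log2 levels of Irx1, Irx2, Pou3f4, Ttr and Hhex (vertical axes, log2 intensity, each gene on its own scale that does not start at 0) in the 6 tissue labels. Points are samples, and bars are the mean and SD. The metastasis-like primaries and liver metastases lie above all other samples for Irx1, Irx2, Pou3f4 and Ttr, and the metastasis-like primaries are lowest for Hhex.

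Irx1 stood at 7.39, 7.48 and 7.51 in normal islets (in the order given above, which every list of values follows), at 6.90, 7.10 and 7.01 in hyperplastic islets and at 6.73, 7.19 and 6.70 in angiogenic islets. Islet tumours had 6.92, 6.77, 6.89, 6.87 and 6.92 (I-9811, II-649, II-6415, III-8017 and III-8024). Metastasis-like primaries had 8.64, 8.76, 8.57, 8.56 and 9.11 (I-9812, II-648, II-6413, III-8016 and III-8023), and metastases 8.82, 8.64 and 8.65 (I-9820, I-9821 and I-9822). Every hyperplastic, angiogenic and tumour sample was thus below the lowest normal islet, and every metastasis-like primary and metastasis more than 1 log2 unit above the highest. Irx1 averaged 6.87 ± 0.06 in islet tumours (SD, n = 5) and 8.73 ± 0.23 in metastasis-like primaries (n = 5), a log2 difference of 1.86 (SE 0.10) or 3.62-fold. Against normal islets the metastasis-like primaries were 2.41-fold higher (1.27, SE 0.11), and the metastases differed from them by -0.02 (SE 0.11), with overlapping ranges. Hyperplastic islets differed from normal islets by -0.46 (SE 0.13), and the angiogenic and tumour means, 6.88 and 6.87, could not be ordered.

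Irx2, the neighbour of Irx1 on chromosome 13, kept its normal level until the metastasis-like class. It stood at 8.55, 8.58 and 8.83 in normal islets, 8.47, 8.55 and 8.75 in hyperplastic islets, 8.30, 8.79 and 8.38 in angiogenic islets and 8.91, 8.12, 8.26, 8.54 and 8.25 in islet tumours. These 4 groups overlapped throughout, with means from 8.42 to 8.65. In metastasis-like primaries Irx2 stood at 10.24, 10.33, 10.08, 10.25 and 10.46, and in metastases at 10.32, 10.23 and 10.01. Both sets lay more than 1 log2 unit above the highest other sample, the tumour I-9811 with 8.91. The step from islet tumours to metastasis-like primaries was 1.85 (SE 0.13), 3.62-fold, and from these to metastases -0.08 (SE 0.15). Within title prefixes the step was 1.33 in prefix I (1 sample each), 2.01 in prefix II and 1.96 in prefix III (2 samples each).

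The genes on either side of the pair did not take this course. Adamts16, next to Irx1, averaged 6.26 in islet tumours and 6.23 in metastasis-like primaries, and Irx4, on the far side of Irx2, 6.25 and 6.21. Of the other Iroquois genes, Irx3, Irx4, Irx5 and Irx6, none was called between islet tumours and metastasis-like primaries (limma, adjusted p below 0.05), and 0 of the 4 had an unadjusted p below 0.05. Their differences ran from -0.05 for Irx4 to 0.11 for Irx5. Adamts16 and these Iroquois genes averaged below the array medians of 7.08 to 7.22 in both groups. With no stated background level, a flat course this low does not show that an active gene kept its level. Irx3 rose by 0.56 (SE 0.11) from metastasis-like primaries to metastases (limma, adjusted p = 0.000901). With the hepatocyte mean as a covariate the difference was 0.92 and was not called (adjusted p = 0.601). That covariate nearly coincides with the metastasis label. With it limma called 5 genes in all at this step, against 3126 without it, so the lost call decides nothing about Irx3.

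Pou3f4 showed the largest step of the 5 genes. It stood at 6.77, 6.70 and 6.70 in normal islets, at 6.28, 7.22 and 7.13 in hyperplastic islets, at 6.40, 7.31 and 6.30 in angiogenic islets and at 6.59, 6.62, 6.71, 7.16 and 7.0 in islet tumours. No pair of these 4 groups was apart, and hyperplastic and angiogenic islets varied most (SD 0.52 and 0.56, n = 3 each). Metastasis-like primaries had 10.15, 10.04, 10.17, 10.21 and 10.21, and metastases 9.42, 9.80 and 9.48. The 5 metastasis-like primaries spanned less than 0.2 log2 units, and each was above each metastasis. Pou3f4 averaged 6.82 ± 0.25 in islet tumours and 10.16 ± 0.07 in metastasis-like primaries (SD, n = 5 each), a difference of 3.34 (SE 0.18) or 10.1-fold. Within title prefixes I, II and III the step into the metastasis-like class was 3.56, 3.44 and 3.13. Metastases differed from metastasis-like primaries by -0.59 (SE 0.20). All metastases carry prefix I, and their hepatocyte gene means were 10.04 to 10.57 against 6.46 to 6.72 in metastasis-like primaries. Whether liver tissue has a part in this difference was not tested.

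The other POU class 3 genes, Pou3f1, Pou3f2 and Pou3f3, are neural factors of the same family. None of the 3 was called between islet tumours and metastasis-like primaries (limma, 0 with an unadjusted p below 0.05), with differences of 0.01, 0.07 and 0.05. The measured neighbours of Pou3f4 on the X chromosome, Gm6377, Cylc1 and Rps6ka6, differed by 0.20 (SE 0.14), 0.10 (SE 0.08) and -0.08 (SE 0.14). Pou3f2, Pou3f3, Gm6377 and Cylc1 averaged below the array medians of 7.08 to 7.22 in both groups, so the same limit holds for them. Pou3f1 averaged 7.93 and 7.95. Neuronal genes were partly higher, with 5 of 8 called higher and none lower (Syt1 by 2.10, SE 0.25, and Elavl3 by 1.38, SE 0.12), and their array means were 8.2 to 8.6 in islet tumours and 8.76 to 9.25 in metastasis-like primaries. Whether these have a part in the level of Pou3f4 was not tested.

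Ttr, a secreted carrier and not a transcription factor, had a course with a low point in islet tumours. It stood at 12.19, 12.43 and 12.39 in normal islets, at 11.99, 12.03 and 12.11 in hyperplastic islets and at 11.85, 11.77 and 11.84 in angiogenic islets. Islet tumours had 11.11, 10.59, 11.62, 11.11 and 10.78. Metastasis-like primaries had 12.74, 12.62, 12.47, 12.53 and 12.69, and metastases 12.88, 12.84 and 12.76. No 2 groups overlapped in Ttr, and the order of the means from high to low was metastasis, metastasis-like primary, normal, hyperplastic and angiogenic islet, and islet tumour. Several of these gaps were small: 0.22 between metastases and metastasis-like primaries (SE 0.14) and 0.27 between these and normal islets (SE 0.14). Ttr was 1.72-fold lower in islet tumours than in angiogenic islets (-0.78, SE 0.14) and 2.96-fold higher in metastasis-like primaries than in islet tumours (1.57, SE 0.12). Within prefixes I, II and III that step was 1.63, 1.44 and 1.66.

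Ttr is also a major product of hepatocytes, so hepatocyte genes were read beside it. Of the 17 genes, 1 was higher and 1 lower in metastasis-like primaries than in islet tumours (limma), and their array means were 6.46 to 6.72 against 6.38 to 6.61. The lower one was Tat (-1.77, SE 0.18), which averaged 9.50 in normal islets and 9.26 in metastases, so here it does not mark hepatocytes alone. Of the 15 not called, Apoa1 rose by 0.72 (SE 0.28, limma, adjusted p = 0.0663) without overlap between groups, and the rest overlapped. Alb, the albumin gene and the one called higher (2.33, SE 0.71), varied widely, with 9.67, 8.20, 7.61, 11.78 and 9.68 in metastasis-like primaries and 7.80, 6.50, 6.04, 8.24 and 6.72 in islet tumours. In the array means, Alb and Tat pull in opposite directions. With the hepatocyte mean as a covariate the Ttr step was 1.56 (SE 0.13). In metastases all 17 hepatocyte genes were higher than in metastasis-like primaries, by a median of 3.66 against -0.01 over all genes, and their part in the Ttr level of primaries or metastases was not tested.

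**Figure D2:**
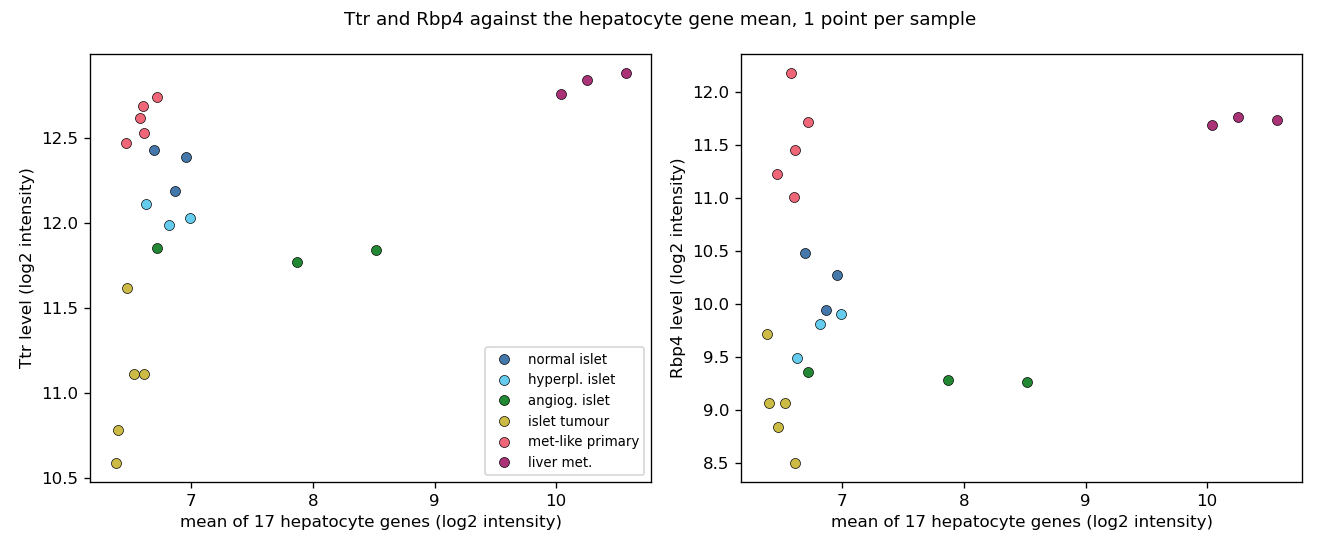
Log2 level of Ttr (left) and Rbp4 (right) against the mean log2 level of 17 hepatocyte genes, with 1 point per sample coloured by tissue label. Metastasis-like primaries and islet tumours share hepatocyte means from 6.38 to 6.72 while Ttr is 12.47 to 12.74 in the former and 10.59 to 11.62 in the latter, and liver metastases lie at 10.04 to 10.57. The mean holds Alb, called higher, and Tat, called lower, in metastasis-like primaries than in islet tumours.

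Hhex, the delta-cell factor, went the other way. It stood at 7.45, 7.84 and 7.88 in normal islets, at 7.23, 6.60 and 6.88 in hyperplastic islets and at 7.68, 7.28 and 6.81 in angiogenic islets. Islet tumours had 6.73, 6.43, 6.36, 6.52 and 6.63, metastasis-like primaries 6.17, 6.19, 6.09, 6.01 and 6.30, and metastases 6.96, 6.73 and 6.71. In the order of means, only islet tumours and metastasis-like primaries lay apart, with 6.36 and 6.30 as their nearest samples, and normal, angiogenic and hyperplastic islets, metastases and islet tumours each overlapped the next. Metastasis-like primaries were 2.97-fold below normal islets (-1.57, SE 0.16) and 1.30-fold below islet tumours (-0.38, SE 0.14). Metastases were 1.57-fold above metastasis-like primaries (0.65, SE 0.16), and the metastasis-like primary of prefix I, the prefix of all metastases, had 6.17. The means of hyperplastic islets, islet tumours, metastasis-like primaries and metastases, 6.9, 6.53, 6.15 and 6.80, lay below the array medians of 7.08 to 7.22. With no stated background level, differences between Hhex values this low are uncertain. Exoc6, the gene next to Hhex on chromosome 19, was also lower in metastasis-like primaries than in islet tumours (-0.46, SE 0.09), while Kif11 on the other side differed by 0.13 (SE 0.27).

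Endothelial and liver cells also make Hhex, and their markers differed between the same groups. The 11 endothelial genes had array means of 8.75 to 9.14 in angiogenic islets, 8.21 to 8.55 in islet tumours, between 7.5 and 7.84 in metastasis-like primaries and 7.6 to 7.68 in metastases. Of these, 9 of 11 were called lower in metastasis-like primaries than in islet tumours (limma, median -0.82) and 0 of 11 differed in metastases (0 with an unadjusted p below 0.05). The hepatocyte genes were the ones higher in metastases, and with their mean as a covariate the Hhex difference from metastasis-like primaries was 2.01 (SE 0.51) in place of 0.65. Their mean nearly coincides with the metastasis label. Each label has its own mean in the fit, so the covariate's slope comes from differences within labels. These were widest in angiogenic islets, with hepatocyte means of 6.72, 7.87 and 8.52. The value of 2.01 therefore carries that slope over to metastases, where the fit cannot tell covariate and label apart. What part these cells have in the Hhex values was not tested.

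**Figure D3:**
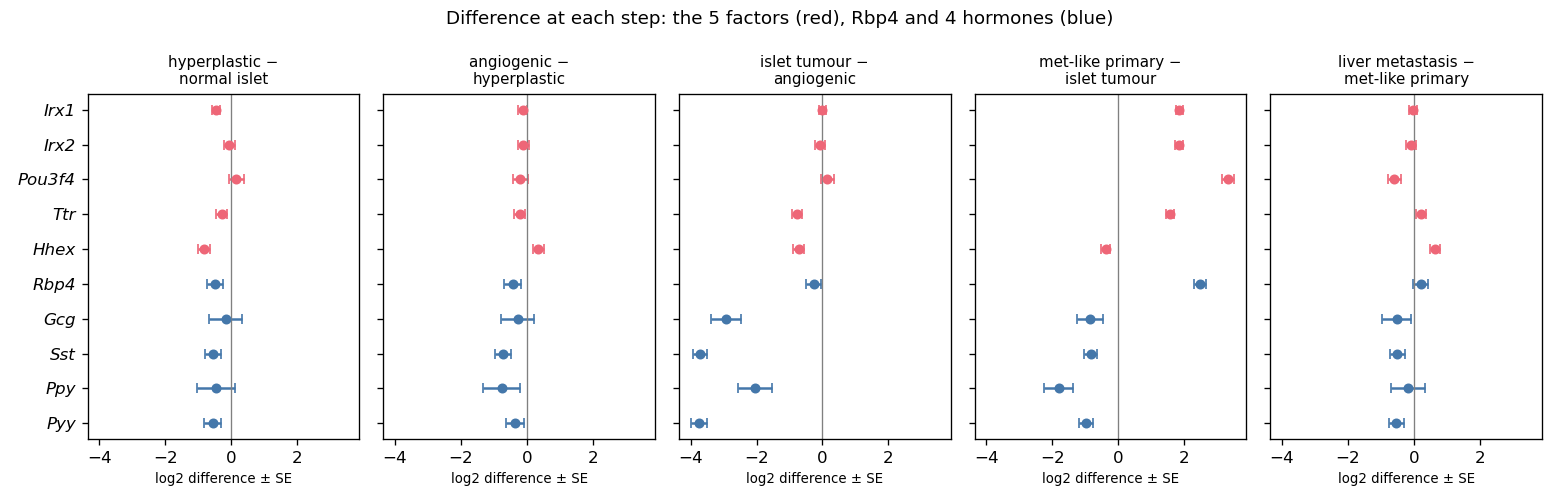
Log2 difference with its standard error (horizontal axis) at each of 5 steps between tissue labels, for Irx1, Irx2, Pou3f4, Ttr and Hhex in red and for Rbp4, Gcg, Sst, Ppy and Pyy in blue. The alpha-cell factors and Rbp4 lie to the right at the step from islet tumour to metastasis-like primary, and the 4 hormones lie furthest left at the step from angiogenic islet to islet tumour.

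Over all genes, limma called 12.3% higher and 14.2% lower between islet tumours and metastasis-like primaries, where 4 of the 5 genes were called higher (Irx1, Irx2, Pou3f4 and Ttr) and 1 lower (Hhex). From normal to hyperplastic islets 0 were called higher and 2 lower (Irx1 and Hhex), with 4.46% and 4.17% of all genes. From hyperplastic to angiogenic islets 0 were called either way by limma, with 0 at an unadjusted p below 0.05, and 2.29% and 0.246% of all genes. From angiogenic islets to islet tumours 0 were called higher and 2 lower (Ttr and Hhex), with 3.09% and 6.45%. From metastasis-like primaries to metastases 1 was called higher (Hhex) and 0 lower, with 7.8% and 7.87%. Between normal islets and metastasis-like primaries 3 were called higher (Irx1, Irx2 and Pou3f4) and 1 lower (Hhex), with 19.5% and 23.3%. The genes were chosen on these comparisons, so nothing is read from the counts.

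The islet hormones, which the choice of genes also used, did not share 1 step. Gcg, Sst and Pyy had their largest difference from angiogenic islets to islet tumours, and Iapp and Ins2 had theirs from islet tumours to metastasis-like primaries, the step of Irx1, Irx2 and Pou3f4. Gcg stood at 13.24, 13.34 and 13.34 in normal islets, 13.11, 13.13 and 13.15 in hyperplastic islets and 12.88, 12.68 and 13.02 in angiogenic islets. In islet tumours it stood at 10.11, 8.30, 9.29, 11.03 and 10.90, a difference of -2.93 (SE 0.45) from angiogenic islets. In this group of tumours Irx2 and Pou3f4 overlapped their islet levels, and Irx1 overlapped angiogenic islets but was below every normal islet. The tumour means of Irx1 and Pou3f4, 6.87 and 6.82, lay below the array medians of 7.08 to 7.22. With no stated background level, values this low do not show that Irx1 and Pou3f4 were kept. Metastasis-like primaries had Gcg levels of 8.11, 9.56, 9.97, 8.53 and 9.21 and metastases 8.44, 8.33 and 8.90, so both overlapped the islet tumours. The step into the metastasis-like class was -0.85 (SE 0.39), and within prefixes I, II and III it was -1.99, 0.97 and -2.1, so its direction was not the same in prefix II. Against normal islets, Gcg in metastasis-like primaries was 18.7-fold lower (-4.23, SE 0.45).

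**Figure D4:**
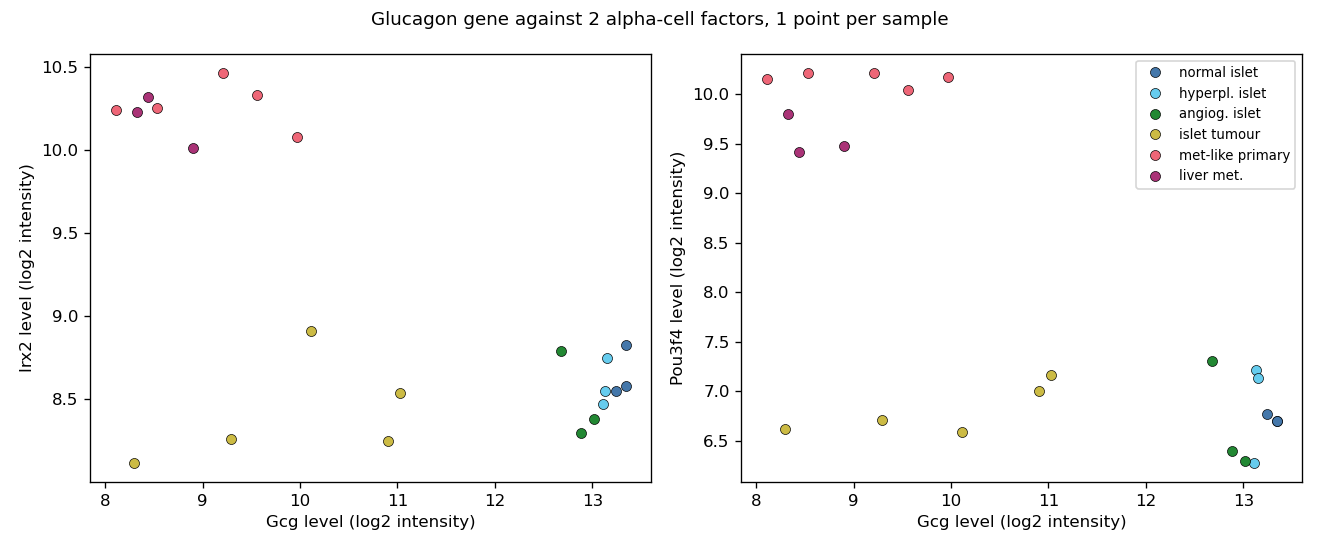
Log2 level of Irx2 (left) and Pou3f4 (right) against that of Gcg, with 1 point per sample coloured by tissue label. Islets have Gcg of 12.68 or more, islet tumours have lower Gcg with Irx2 and Pou3f4 overlapping islet levels, and metastasis-like primaries and liver metastases have Gcg of 9.97 or less with Irx2 of 10.01 or more and Pou3f4 of 9.42 or more. Mean Pou3f4 in islets and islet tumours is below the array medians of 7.08 to 7.22.

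Sst, the somatostatin gene of delta cells, was lower at every step in the order normal, hyperplastic and angiogenic islet, islet tumour, metastasis-like primary and metastasis. It stood at 12.88, 13.16 and 13.17 in normal islets, 12.58, 12.54 and 12.42 in hyperplastic islets, 11.89, 11.40 and 12.12 in angiogenic islets and 7.68, 7.72, 7.87, 8.22 and 8.97 in islet tumours. Metastasis-like primaries had 7.24, 7.44, 7.50, 6.93 and 7.17 and metastases 6.79, 6.76 and 6.72. No 2 groups overlapped, and the largest step was the one from angiogenic islets to islet tumours (-3.71, SE 0.21). Metastasis-like primaries were 56.3-fold below normal islets. Hhex was lowest in metastasis-like primaries and higher in metastases, whereas Sst was lowest in metastases.

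Ppy, the pancreatic polypeptide gene, was 8.97, 10.46, 12.27, 8.33 and 9.96 in islet tumours, so single tumours ranged from near the islet level to near the metastasis-like level of 8.09 to 8.41. Pyy, the peptide YY gene, was 8.11 to 9.53 in islet tumours against 12.08 to 12.61 in angiogenic islets, and 7.17 to 8 in metastasis-like primaries. The beta-cell hormones kept their level longer. Iapp, the amylin gene, was 13.29 to 13.53 in islet tumours and 11.93 to 12.75 in metastasis-like primaries (-1.16, SE 0.13), and Ins2, an insulin gene, 10.93 to 11.06 and 9.87 to 10.38 (-0.84, SE 0.09). Ghrl, the ghrelin gene, averaged 7.44 and 7.45. Ins1 was not analysed here.

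**Figure D5:**
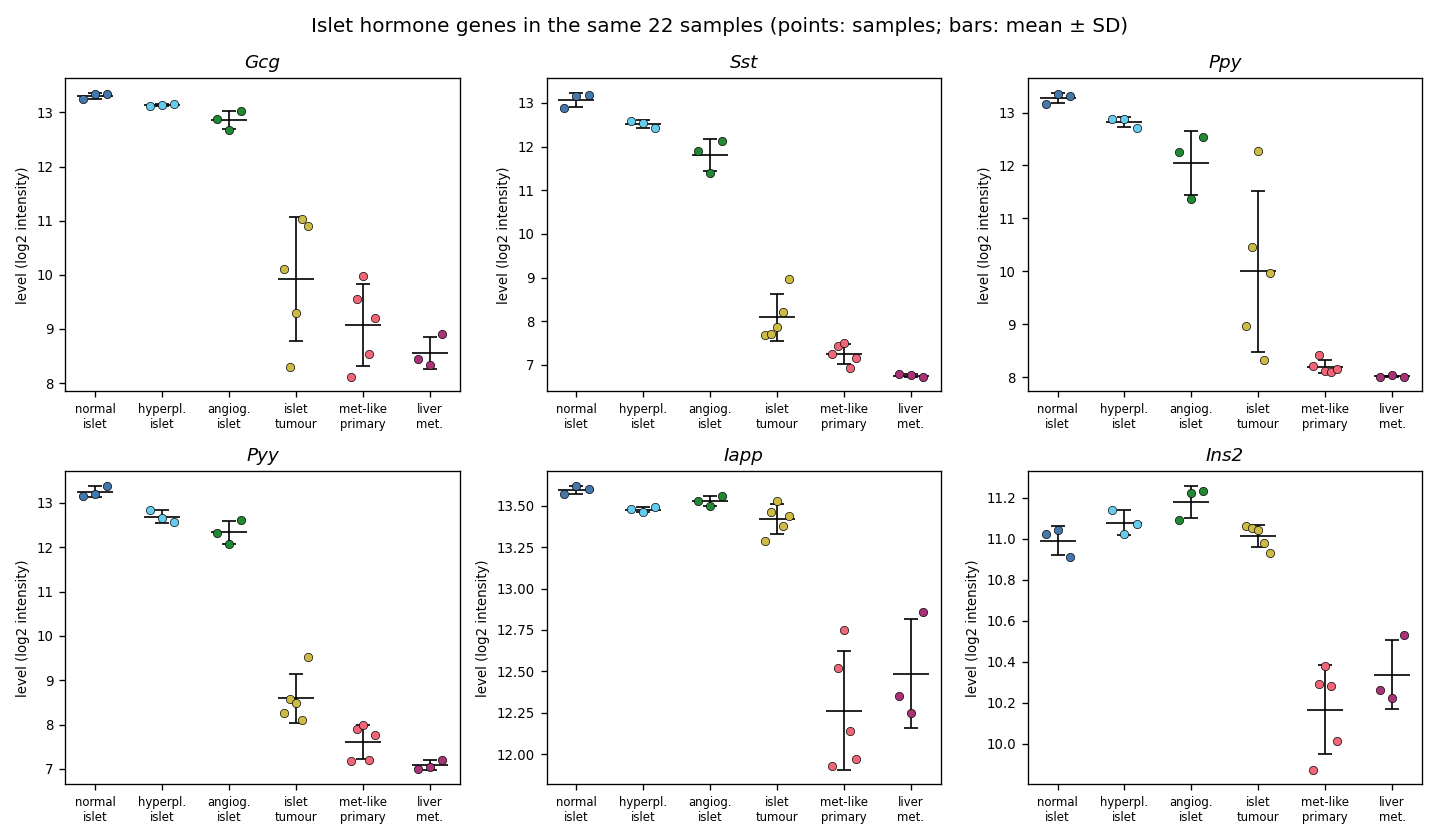
Log2 levels of 6 islet hormone genes (vertical axes, log2 intensity, each gene on its own scale that does not start at 0) in the 6 tissue labels. Points are samples, and bars are the mean and SD. Gcg, Sst, Ppy and Pyy are lower in islet tumours than in islets, apart from 1 tumour with Ppy of 12.27, while Iapp and Ins2 are lower in metastasis-like primaries and metastases.

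Other genes of alpha cells did not follow the factors as a group. Of the 9 listed besides Gcg, 6 were analysed here. From islet tumours to metastasis-like primaries 2 of the 6 rose and 2 fell by limma's test, with a median of -0.08 against -0.02 over all genes. Smarca1, a chromatin remodeller, rose from 8.25 ± 0.13 to 9.45 ± 0.13 (SD, n = 5 each; log2 difference 1.20, SE 0.09, adjusted p = 1.88e-09). Etv1, an ETS transcription factor, rose from 10.6 ± 0.46 to 11.6 ± 0.13 (0.99, SE 0.15, adjusted p = 2.84e-05), with no overlap between groups for either gene. Dpp4, a peptidase that cleaves glucagon-family hormones and lies beside Gcg, fell by 2.03 (SE 0.20, adjusted p = 9.02e-08), with islet tumours at 7.89 to 9.11 and metastasis-like primaries at 6.01 to 6.8. Slc7a2, a carrier of basic amino acids, fell by 1.17 (SE 0.23, adjusted p = 0.000451), with overlapping groups. Slc38a5, a glutamine carrier, and Fap, a peptidase related to Dpp4, differed by -0.22 (SE 0.27) and 0.07 (SE 0.13).

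Earlier in the series, Slc38a5 rose from 9.72 ± 0.83 in normal islets to 11.7 ± 0.21 in hyperplastic islets (SD, n = 3 each; limma, adjusted p = 0.000584) and stood at 11.34 to 12.8 in all primary tumours. Dpp4 fell by 0.89 over the same step (adjusted p = 0.0331), but this call was lost when any 1 of the 6 arrays was left out, with adjusted p up to 0.143. On the other side of Gcg, Fap was 5.16 to 5.9 in metastasis-like primaries. Slc4a10, the next measured gene beyond Dpp4, was 8.58 in islet tumours and 6.63 in metastasis-like primaries on average (-1.95, SE 0.24).

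Of the delta-cell genes besides Sst, Rbp4 was the single one of 4 called between islet tumours and metastasis-like primaries (limma). It encodes the retinol carrier that binds transthyretin, and it stood at 9.94, 10.48 and 10.27 in normal islets, 9.81, 9.91 and 9.49 in hyperplastic islets and 9.36, 9.28 and 9.26 in angiogenic islets. Islet tumours had 8.50, 9.72, 8.84, 9.06 and 9.06, metastasis-like primaries 11.72, 12.18, 11.23, 11.46 and 11.01, and metastases 11.74, 11.77 and 11.69. Every metastasis-like primary was above every normal islet, as for Ttr. The rise from islet tumours was 2.49 (SE 0.19) or 5.60-fold (limma, adjusted p = 3.26e-09), and it was called under all 19 alternatives, with adjusted p up to 1.56e-05. Rbp4 is also a hepatocyte product, and the hepatocyte values given with Ttr apply to it. Ghsr, the ghrelin receptor, Bche and Lepr, the leptin receptor, differed by 0.01, -0.17 and -0.01 and were not called. Bche and Lepr rose by 1.53 and 1.40 from metastasis-like primaries to metastases. With the hepatocyte mean as a covariate the differences were 0.15 for Bche and 2.83 for Lepr, neither of them called (limma, adjusted p = 0.985 and 0.332). Since that covariate nearly coincides with the metastasis label, the lost calls decide nothing.

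Genes that handle or sense the cargo of transthyretin were split. Of the 6 measured, from islet tumours to metastasis-like primaries Rbp4 (above) and the thyroid hormone receptors Thra (0.73, SE 0.09, adjusted p = 2.64e-06) and Thrb (0.44, SE 0.09, adjusted p = 0.000743) rose by limma's test. Dio1, the deiodinase that activates thyroxine, fell by 1.06 (SE 0.17, adjusted p = 6.88e-05). Crym, which binds thyroid hormone, and Stra6, the retinol receptor, differed by -0.09 and -0.06 and were not called. From metastasis-like primaries to metastases, Thra fell by 0.75 (SE 0.11, limma, adjusted p = 3.03e-05) and Thrb by 0.85 (SE 0.11, adjusted p = 6.41e-06). With the hepatocyte mean as a covariate the differences were -0.41 and -1.30, neither of them called (limma, adjusted p = 0.845 and 0.359). Here too the covariate nearly coincides with the metastasis label, so the lost calls decide nothing.

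The wider set of endocrine lineage factors moved mostly down as Irx1, Irx2 and Pou3f4 stood higher. Of 16 measured of 18, 9 fell and 2 rose from islet tumours to metastasis-like primaries (limma), with a median of -0.51 against -0.02 over all genes. Pdx1, which directs pancreas and beta-cell formation, fell by 2.76 (SE 0.14, adjusted p = 3.05e-12), from 9.86 ± 0.19 to 7.11 ± 0.25 (SD, n = 5 each). Insm1 fell by 1.73 (SE 0.15, adjusted p = 1.31e-08), and Nkx6-1, which keeps beta cells from alpha-cell fate, by 1.68 (SE 0.18, adjusted p = 2.26e-07). Mnx1 and Mafa, both beta-cell factors, fell by 1.67 and 1.43, and St18, Rfx6, Pax6 and Neurod1 by 1.22, 0.72, 0.57 and 0.45. Pax6, which activates the glucagon gene together with other factors, stood at 10.47 to 10.96 in metastasis-like primaries against 10.93 to 11.62 in islet tumours. The 2 that rose were Foxa1, an activator of the glucagon gene (0.86, SE 0.16, adjusted p = 2e-04), and Isl1, a factor of all islet cells (0.36, SE 0.11, adjusted p = 0.013), the latter lost when only the compared arrays were fitted (adjusted p = 0.0701). All 10 measured beta-cell genes fell at this step by limma's test, with a median of -1.85, where 14.2% of all genes were called lower. These 10 include Iapp and Ins2, hormones used in the choice of genes, and Pdx1, Nkx6-1 and Mafa, already counted above. Among the others were Ucn3, a secreted peptide of mature beta cells (-3.28, SE 0.21), and Glp1r, the receptor of the incretin that Gcg also encodes (-3.11, SE 0.23).

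Across the 22 arrays, the levels of Irx1, Irx2 and Pou3f4 were alike, with Pearson's r of 0.973 for Irx1 and Irx2, 0.966 for Irx2 and Pou3f4 and 0.954 for Irx1 and Pou3f4. Ttr was less like them (r of 0.805, 0.769 and 0.688 with Irx1, Irx2 and Pou3f4). Hhex had r of -0.405, -0.48 and -0.613 with Irx1, Irx2 and Pou3f4, and 0.005 with Ttr. These values are descriptions only, since the points share arrays, tissue labels and normalization.

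By the same measure the 5 genes most like each factor were named, leaving out the other factors described here and predicted or unnamed genes. For Irx1 they were Tent5d (r = 0.982), Shisa6, Zfp395, Pgrmc1 and Me3 (0.972), and for Irx2 Tlcd1 (0.977), Slc2a3, Minar1, Pak6 and Sned1 (0.97). For Pou3f4 they were Fam13a (0.986), Nexmif, Clvs1, Nsg2 and Gng2 (0.982). For Ttr they were Lonrf2 (0.934), Gpx3, Sgms2, Nynrin and Paip2 (0.898). For Hhex they were Nostrin (0.918), Npr1, Sytl2, Sigirr and Cyp2j6 (0.897).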

How the data were processed

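Total RNA of 22 samples was hybridised to Affymetrix Mouse Gene 1.0 ST arrays after TRIzol purification and biotin labelling, per the labels' protocols. The deposited values are log2 intensities, read from their range and already normalized by the authors with aroma.affymetrix, per the series text. The sources used here do not give the software version, background correction, normalization or summarization, and arrays carry no read depth. Array medians were 7.08 to 7.22.

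Of 35511 probe sets, 21789 had 1 gene symbol in the platform's gene table, 1621 had several and 12101 had none. Where a gene had several probe sets (999 genes), the brightest on average was kept, which left 19938 genes. A gene without such a probe set is called not analysed here. Each of the 5 genes had 1 probe set.

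A single limma fit (version 3.58.1, R version 4.3.3) covered all arrays and gave each tissue label its own mean, two-sided moderated tests and Benjamini-Hochberg adjustment over all genes. A gene was called at an adjusted p below 0.05. The method was tested on simulated data. The 5 genes, the lists and the comparisons were chosen with earlier results of these data known. Genes named were these 5, the hormones, the Iroquois and POU class 3 families, up to 4 called genes per list by the size of their difference (more are named where a list is short), and the 5 genes most correlated with each. Slc4a10, Exoc6 and the other neighbours were named by position on the RefSeq annotation. Figures were drawn with matplotlib 3.10.9.

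Samples of the same title code deviated together between normal and hyperplastic islets (r of 0.197 to 0.448 across genes, against -0.368 to -0.058 for other codes) and between hyperplastic and angiogenic islets (0.353 to 0.479, against -0.393 to -0.062), and less between normal and angiogenic islets (0.057 to 0.144). Deviations from a stage mean cancel within the stage, so negative values for other codes follow from positive ones for the same code and add no separate contrast. Alternatives were a replicate block for the title code or prefix, quantile normalization, a fit of only the compared arrays, centring on the array median, leaving out dim genes, the mean of all probe sets, array weights, a trended robust variance, the hepatocyte mean as a covariate and leaving out each array. The block counted islet code I-93 and tumour prefix I as the same code, which the sources used here do not state. Block values between islets and tumours are linked only through the arrays of that shared code. Values within title prefixes were added after seeing the data.

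Markers of other cell types were read as array means. From islet tumours to metastasis-like primaries the macrophage genes (8 measured) held 1 lower call and array means of 8.37 to 9.04 and 8.21 to 9.02, and the acinar genes (8 measured) held 1 lower call and means of 10.37 to 10.8 and 9.48 to 11.07. The ductal genes (5 measured) held 2 lower calls and means of 7.59 to 8.11 and 6.71 to 7.32, and the B lymphocyte genes (5 measured) held 0 calls by limma, with 0 at an unadjusted p below 0.05.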

Additional observations from a re-analysis of the deposited data

Results flagged for a closer look

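Among the genes of these lists, 100 groups of 5 samples were searched for a sample far from its group by Dixon's criterion, which chance meets in about 5% of groups, and 4 were found. Ghrl in the islet tumour III-8017 was 7.19, below the next sample at 7.48, and Irx5 in the islet tumour I-9811 was 6.05, above the next at 5.83. Insm1 in the metastasis-like primary I-9812 was 7.92, below the next at 8.59, and Nkx6-1 in the metastasis-like primary III-8016 was 8.5, above the next at 7.56. None of these values belongs to Irx1, Irx2, Pou3f4, Ttr or Hhex.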

How the results depend on the processing

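From islet tumours to metastasis-like primaries the alternatives other than single title prefixes gave 1.76 to 1.90 for Irx1, 1.78 to 1.98 for Irx2, 3.28 to 3.43 for Pou3f4, 1.46 to 1.71 for Ttr and -0.43 to -0.33 for Hhex. Of 515 values over all steps and alternatives, title prefixes included, 19 changed sign or reached 0, all at small steps of Irx1, Irx2 or Pou3f4 with a reported difference of at most 0.15 in size, 11 of them from angiogenic islets to islet tumours, where Irx2 went from -0.07 to 0.30 with the replicate block and 0.15 with the hepatocyte covariate. Within title prefix I, with 1 array each, the Irx2 step was 1.33 in place of 1.85. With the hepatocyte covariate the difference from metastasis-like primaries to metastases was -0.75 for Irx2, -0.29 for Irx1 and 2.01 for Hhex, while Hhex differed by 0.68 from hyperplastic to angiogenic islets and by -1.18 (-0.72 without the covariate) from these to islet tumours. Without the array Angiogenic2006, Pou3f4 differed by -0.53 from hyperplastic to angiogenic islets and by 0.47 from these to islet tumours.

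With the replicate block, genes called were 2112 from normal to hyperplastic islets (1722 without it), 616 to angiogenic islets (505), 2696 to islet tumours (1903), 5738 to metastasis-like primaries (5279), 2892 to metastases (3126) and 7377 between normal islets and metastasis-like primaries (8528), and Irx2 differed by 1.99 in the last in place of 1.62. From hyperplastic to angiogenic islets the 505 became 930 with array weights and 275 to 869 with 1 array left out: 275 and 316 without Hyperplastic2006 and Hyperplastic2007, and 284 and 869 without Angiogenic2006 and Angiogenic2007. From angiogenic islets to islet tumours the 1903 became 768 in a fit of the compared groups, 1095 with the hepatocyte covariate, and 732 to 2228 with 1 array left out, with 732 without AngiogenicI-93 and 1025 without Angiogenic2006. From metastasis-like primaries to metastases the 3126 became 5377 with array weights, 5 with the hepatocyte covariate, which nearly coincides with the metastasis label, and 1950 to 3415 with 1 array left out, with 1950 and 1988 without metastases I-9821 and I-9822. Median centring moved the share of calls that were higher from 51.7% to 37.9%, from 90.3% to 76.6% and from 32.4% to 51.7% at the first 3 steps. The causes were not tested. The number of arrays limits the precision, and dim genes have no stated background level.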
